A study of Mus musculus with 39 samples.

Results

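The genes described here are 10 components and targets of the NF-kB pathway, taken by name: the subunit genes Nfkb2 and Relb, the inhibitor and IkB family genes Nfkbia, Nfkbie, Nfkbiz and Bcl3, and Tnfaip3, Traf1, Cd83 and Ltb, which are regulators or targets of the pathway. They are 10 of 18193 genes measured in 39 lymphomas of Eµ-myc transgenic mice, on 1 array per tumour. All 10 were measured, with 20 probe sets in all, and the level of a gene is that of its probe set with the highest mean. All carry the same transgene, in which the Myc oncogene is driven in B lineage cells by an immunoglobulin heavy chain enhancer. They form a single group by their labels, without normal tissue, treatment or age, so every comparison runs between tumours. Whether each tumour is from its own mouse is not stated, and the p-values cover the spread between samples only, which may be partly technical.

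NF-kB transcription factors are dimers of Rel family proteins that inhibitors of the IkB family hold in the cytoplasm. In the classical arm, signals such as those of antigen, TNF or Toll-like receptors lead to the breakdown of IkB alpha (Nfkbia), and the freed dimers switch on target genes, among them those of their own inhibitors. In the alternative arm, receptors such as CD40, the lymphotoxin beta receptor and the BAFF receptor lead to processing of the Nfkb2 product to p52, which pairs with RelB. Bcl3 and Nfkbiz encode nuclear members of the IkB family that bind p50 or p52 dimers and alter which targets are transcribed. In mature B cells the pathway serves survival and activation.

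Promoter sequence of the members was compared first, and its relation to their levels was not tested. RefSeq start sites (GRCm38.p6) were available for 7 of the 10 genes, in 10 windows of 250 bases before to 50 after a start. The windows were searched on both strands for 2 strict forms of the kB site (GGG, any 2 bases, then TTTCC or TTCCC) and for the less strict kB consensus, so that 1 site can match several of these. At least 1 match was found in 8 of the 10 windows and in 6 of the 7 genes, against 9.84% of 32851 windows of that length over all genes. The windows are not independent. For Nfkb2, chr19:46305445-46305744 and chr19:46305680-46305979 overlap and share 1 GGGACTTTCC site. The genes were taken by name as components and targets of the pathway, so their share is a description and not a test. The share of all windows was 1.63% for the form ending in TTTCC, 1.75% for that ending in TTCCC and 8.46% for the consensus. Matches are in capitals in the windows below, where the first listed window is shown of each gene that has a match to a strict form. A match is a description of the letters and not evidence of binding, and the Traf1 window and the second Tnfaip3 window held none of these letters.
Nfkbia, chr12:55492598-55492897, minus strand: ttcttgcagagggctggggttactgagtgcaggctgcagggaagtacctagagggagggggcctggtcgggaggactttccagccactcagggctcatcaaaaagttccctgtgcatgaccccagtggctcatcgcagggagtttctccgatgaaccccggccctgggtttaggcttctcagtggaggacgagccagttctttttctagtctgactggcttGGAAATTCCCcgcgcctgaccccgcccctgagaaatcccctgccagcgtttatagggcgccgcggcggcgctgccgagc
Nfkb2, chr19:46304487-46304786, plus strand: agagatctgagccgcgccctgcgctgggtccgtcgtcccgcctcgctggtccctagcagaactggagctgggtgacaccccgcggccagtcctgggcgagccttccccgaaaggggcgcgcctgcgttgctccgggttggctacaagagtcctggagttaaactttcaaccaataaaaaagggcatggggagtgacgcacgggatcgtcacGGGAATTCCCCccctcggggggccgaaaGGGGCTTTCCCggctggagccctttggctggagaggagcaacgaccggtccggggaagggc
Tnfaip3, chr10:19015361-19015660, minus strand: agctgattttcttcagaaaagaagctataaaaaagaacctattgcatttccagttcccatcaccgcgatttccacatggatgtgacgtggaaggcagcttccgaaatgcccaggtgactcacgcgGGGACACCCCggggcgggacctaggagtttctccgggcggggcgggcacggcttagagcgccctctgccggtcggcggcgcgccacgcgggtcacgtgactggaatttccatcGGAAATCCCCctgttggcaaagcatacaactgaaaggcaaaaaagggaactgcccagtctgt
Ltb, chr17:35194257-35194556, plus strand: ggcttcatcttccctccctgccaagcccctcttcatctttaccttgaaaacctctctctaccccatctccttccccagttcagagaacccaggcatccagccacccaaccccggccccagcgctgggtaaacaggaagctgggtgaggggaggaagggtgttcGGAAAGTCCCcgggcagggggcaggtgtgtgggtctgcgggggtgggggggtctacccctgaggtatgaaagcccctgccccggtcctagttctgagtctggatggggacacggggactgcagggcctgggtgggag
Bcl3, chr7:19822706-19823005, minus strand: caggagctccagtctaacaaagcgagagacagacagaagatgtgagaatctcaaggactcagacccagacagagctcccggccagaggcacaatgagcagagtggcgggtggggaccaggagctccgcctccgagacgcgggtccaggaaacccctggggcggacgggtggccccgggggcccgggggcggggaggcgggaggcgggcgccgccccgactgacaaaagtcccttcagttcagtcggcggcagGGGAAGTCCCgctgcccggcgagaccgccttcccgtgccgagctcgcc
The Nfkbia match reads GGGAATTTCC on the opposite strand and begins at -29 from the start site. In Ltb the match reads GGGACTTTCC on the opposite strand and begins at -87. Nfkb2 has a palindromic GGGAATTCCC at -39 and a GGGGCTTTCC at -11. Tnfaip3 has GGGGATTTCC on the opposite strand at -12, and Bcl3 has GGGACTTCCC on the opposite strand at 2, just after its start.

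The deposited values had been quantile normalized, so the array medians, between 5.61 and 5.78 (log2), are alike by processing and do not measure array quality. The mean correlation with the other arrays was lowest in tumours 6 (0.912), 8 (0.916) and 2 (0.918). The label lymphoma was checked against B cell genes. Cd79a, a signalling chain of the B cell receptor, averaged 8.67 over all tumours but was at 3.95, 4.05 and 4.18 in tumours 6, 8 and 23. Pou2af1, a B cell coactivator, was at 3.10, 3.41 and 5.09 there, against a mean of 11.39. Pax5, Blk, Fcrla and Vpreb3 were also under their means there, but not every B cell gene was low. In the same order, Cd72 was at 10.66, 12.20 and 12.76 (mean 10.63) and Cd79b at 12.03, 12.51 and 11.70 (mean 12.28). Blnk was at 12.08, 11.86 and 11.70 (mean 11.84) and Ebf1 at 10.47, 10.01 and 6.98 (mean 9.66). The pan B cell score, the mean of 10 B cell genes after each was centred, was -3.04 in tumour 5, -2.74 in 6, -2.55 in 8, -2.72 in 23, -2.11 in 19 and -1.71 in 26, against a median of 0.42. Macrophage genes were not all alike in tumours 6, 8 and 23. Adgre1 was at 13.05, 13.12 and 12.55 there and averaged 8.54 over all tumours. Itgam was at 11.26, 12.01 and 11.58 (mean 5.75). Cd68, Lyz2, Csf1r, C1qa, C1qb, C1qc, Fcgr1, Marco and Cd14 were also above their means in each of these tumours. Cd163 and Vsig4 lay on both sides of theirs. Cd5l was at 4.83, 4.91 and 6.62 (mean 9.01), and Msr1, Timd4, Mertk, Axl and Mrc1 were also under their means there. A score of the macrophage genes, made in the same way, was 1.10, 0.54 and 0.95 in these tumours, against a median of -0.06. Tumour 2 had Myc at 8.19, against a median of 11.92. Results are given with and without these 7 tumours, chosen for a score under -1 or Myc under 10, where a member's call depends on them.

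Across the 39 tumours 7 of the 10 members had an SD of at least 1 (log2), as did 7.33% of all genes, and the median SD was 1.18 for the members and 0.321 for all genes. The members were chosen with earlier results of these data known, so this count is a description. Tumour 2 had the highest level of 5 members and tumour 1 that of Nfkb2 and Ltb, while tumours 6 and 8 had the highest levels of Nfkbiz, Bcl3 and Cd83. Levels of different genes come from different probe sets and are not compared with each other. In bulk tissue, fewer cells of a type and less RNA per cell cannot be told apart.

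**Figure D1:**
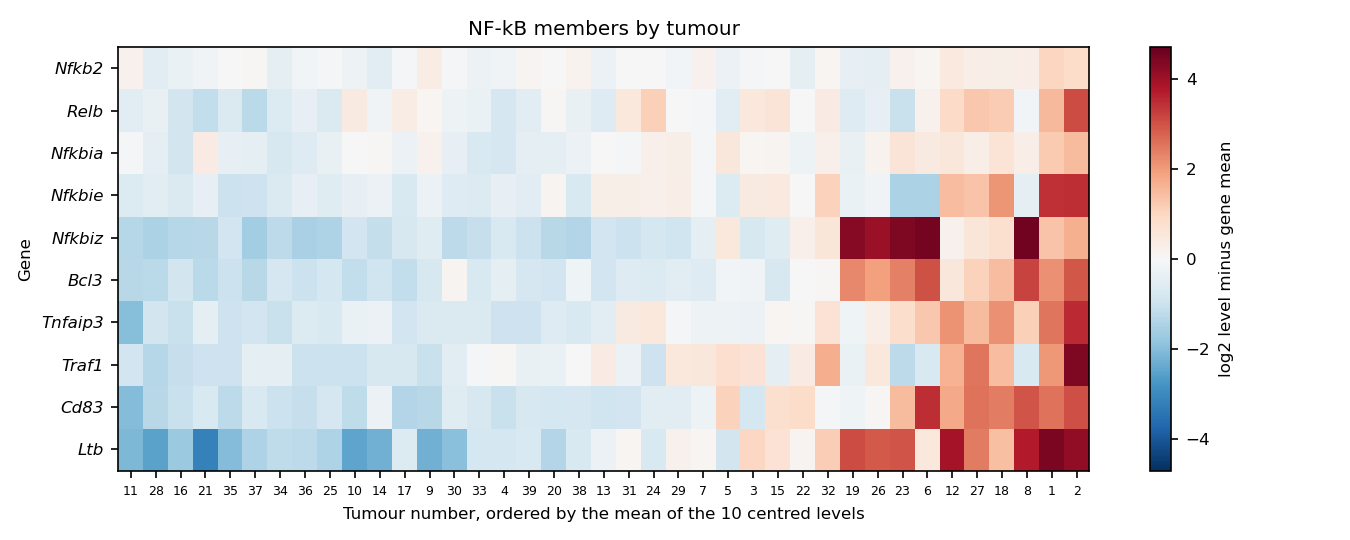
Log2 level minus the gene's mean (colour) for the 10 genes (rows) in each of 39 tumours (columns, by tumour number, ordered by the mean of the 10 centred levels). Tumours 2, 1, 18, 27 and 12 are high in nearly all rows, while tumours 6, 8, 19, 23 and 26 are high in Nfkbiz and Bcl3 and, except tumour 6 (9.20), in Ltb, with Relb, Nfkbie and Traf1 at no more than 6.96, 8.30 and 6.23.

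Of the subunit genes, Relb varied more. Relb, the DNA-binding partner of p52, ran from 5.49 in tumour 37 through a median of 6.60 to 9.83 in tumour 2 (mean 6.77 ± 0.85, SD, n = 39). Tumours 1 (8.31), 27 (8.04), 18 (7.98), 24 (7.88) and 12 (7.68) followed, so tumour 2 stood above the rest. Nfkb2, which encodes the p100 precursor of p52, ran from 7.24 through 7.70 to 8.74 in tumour 1 (mean 7.73 ± 0.33). Tumour 2 was next with 8.58. The second Nfkb2 probe set, with a lower mean, had an SD of 0.73 and a correlation of 0.705 with the first, so the spread of Nfkb2 depends on the probe set.

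The inhibitors fell into 2 patterns. Nfkbia, the classical feedback inhibitor, was high on these arrays in every tumour, from 11.32 in tumour 16 through 12.15 to 13.68 in tumour 2 (mean 12.17 ± 0.52). Its 5 probe sets correlated with the one used at 0.954 or more. Their means ran from 7.54 to 12.17, so how high Nfkbia was depends on the probe set. Nfkbie, which encodes IkB epsilon, another cytoplasmic inhibitor, ran from 6.98 in tumour 6 through 8.10 to 11.94 in tumour 2 (mean 8.48 ± 1.10). Tumours 2, 1 (11.89) and 18 (10.56) formed a separate high cluster for Nfkbie by a mixture model with 2 parts (BIC gain 11.63).

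Nfkbiz lay in 2 separate ranges. Tumours 8, 6, 23, 19 and 26 had levels of 12.83, 12.81, 12.67, 12.56 and 12.35, and the level was between 6.67 and 9.98 in the other 34, with a median of 7.47 over all (BIC gain 28.88). No tumour lay between these ranges. The 3 Nfkbiz probe sets correlated with the one used at 0.949 or more, but the separate ranges were examined only in that one. Bcl3 ran from 5.64 in tumour 11 through 6.34 to 10.14 in tumour 8 (mean 6.95 ± 1.36). Its separate high cluster of 9 tumours held the same 5, with 8.88 to 10.14, together with tumours 2 (9.86), 1 (9.08), 18 (8.40) and 27 (8.04), so unlike Nfkbiz it was as high in tumour 2 as in the 5. In those 5 tumours the other members did not share 1 pattern. Nfkbie was at 6.98, 8.06, 8.18, 7.00 and 8.30 in tumours 6, 8, 19, 23 and 26, around or under its median of 8.10. Traf1 was at 5.01, 5.00, 5.44, 4.51 and 6.23 there, on both sides of its median of 5.39, and Relb at 6.96, 6.64, 6.15, 5.71 and 6.38, against a median of 6.60. Cd83 was high in tumours 6, 8 and 23 (11.33, 10.83 and 9.35) and at 7.68 and 7.93 in tumours 19 and 26, against a median of 7.15. Ltb was at 11.62 or more in all but tumour 6 (9.20). Tnfaip3 was at 9.00 and 8.84 in tumours 6 and 8 and at 7.51, 8.53 and 8.04 in tumours 19, 23 and 26. All of these are above its median of 7.43. Each of the 5 is among the 6 whose pan B cell score was lowest.

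**Figure D2:**
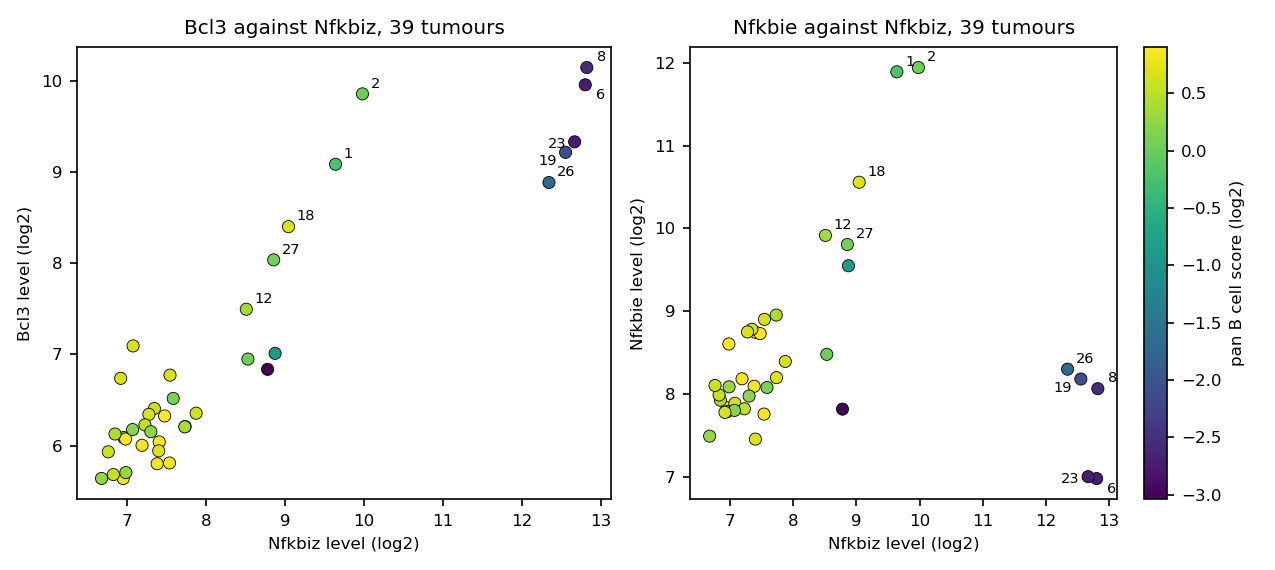
Bcl3 (left) and Nfkbie (right) levels against the Nfkbiz level (all log2) in 39 tumours, coloured by the pan B cell score. Tumours 6, 8, 19, 23 and 26 lie apart at Nfkbiz levels from 12.35 to 12.83, where Bcl3 is 8.88 or more and Nfkbie is 8.30 or less.

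Among the regulators and targets, Tnfaip3, which encodes the ubiquitin-editing inhibitor A20, ran from 5.71 in tumour 11 through 7.43 to 11.23 in tumour 2 (mean 7.72 ± 1.15). Traf1, an adaptor of TNF receptor signalling, ran from 4.38 in tumour 28 through 5.39 to 10.10 in tumour 2 (mean 5.73 ± 1.20), with tumour 27 (8.25) next. Cd83, a surface protein of activated B cells and mature dendritic cells, ran from 5.84 through 7.15 to 11.33 in tumour 6 (mean 7.87 ± 1.46). A separate high cluster of 9 tumours held both kinds, tumours 6, 8, 23 and 5 with low pan B cell scores and tumours 1, 2, 12, 18 and 27. Ltb, the lymphotoxin beta chain that acts as a ligand of the alternative arm, had the largest SD of the 10. It ran from 5.53 in tumour 21 through 8.01 to 13.14 in tumour 1 (mean 8.72 ± 2.09), and tumours 2 (12.90), 12 (12.64), 8 (12.43), 19 (11.80), 23 (11.68) and 26 (11.62) followed. The second Tnfaip3 probe set had an SD of 0.32 and a correlation of 0.825 with the first.

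Most pairs of members moved together over all tumours, but fewer did once tissue scores were in the fit. Of the 45 pairs, 39 were called in fits across all genes along each member in turn (limma, adjusted p under 0.05 in both directions, all positive). With the T cell, macrophage, dendritic cell and fibroblast scores as covariates 17 of the 45 were called, among them Relb with Nfkbie, Nfkbia with Tnfaip3 and Nfkbiz with Bcl3. With these scores in the fit, 638 of 18192 genes were called along Nfkbia. The shares that follow are of the fits without these scores. The share of all genes called in either direction was 16.4% along Nfkbie, 16.6% along Relb, 21.7% along Nfkb2, 22.8% along Traf1 and 28.3% along Nfkbia. It was 33.6% along Ltb, 34.7% along Tnfaip3, 37.3% along Nfkbiz, 38.5% along Cd83 and 41.4% along Bcl3. The 6 pairs not called all held Nfkbiz or Bcl3. They were Nfkbiz with Nfkb2, Relb, Nfkbie and Traf1 (adjusted p = 0.32, 0.54, 0.74 and 0.32) and Bcl3 with Relb and Nfkbie (adjusted p = 0.052 and 0.094). Without the 7 tumours all 45 pairs were called, and 13.4% of all genes were called along Nfkbia. For the other members the share of all genes was not computed in this setting or with the tissue scores. Correlations without the 7 tumours ran from 0.549 to 0.924 with a median of 0.807 (n = 32, 45 pairs, given as a description).

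Nfkbia and Tnfaip3, both feedback inhibitors, had the highest r among the 15 pairs in which neither gene split into clusters. It was 0.832, with rho = 0.829 (permutation p = 1e-05 for each, limma adjusted p over all genes = 1.4e-07, n = 39). Leaving out tumours 2 and 1, the farthest from the median, gave r = 0.726. Some pairs with a clustered gene had a smaller limma adjusted p over all 39, among them Nfkbiz with Bcl3 (6.5e-14) and Tnfaip3 with Cd83 (1.4e-10). Tnfaip3 and Ltb gave r = 0.804 and rho = 0.767 (permutation p = 1e-05 for each, adjusted p = 2.7e-07), and r = 0.740 without tumours 2 and 1. Relb and Tnfaip3 gave r = 0.784 and rho = 0.664 (permutation p = 1e-05 for each, adjusted p = 1.5e-06), and 0.637 without the same tumours. The subunit genes Nfkb2 and Relb were less close (r = 0.624, permutation p = 7e-05, rho = 0.448, permutation p = 0.0048, adjusted p = 0.0011), and r was 0.385 without tumours 1 and 2. For Nfkb2 with Traf1, r was 0.542 (permutation p = 0.00073) and rho 0.255 (permutation p = 0.11, limma adjusted p over all genes = 0.0047). Without tumours 1 and 2, r was 0.253, so for the probe set used that relation rests on them. The Nfkb2 relations depend on the probe set. With the mean of all probe sets, limma adjusted p was 9e-06 for Nfkb2 with Traf1 and 1.4e-06 with Relb. Nfkb2 with Nfkbiz was then called (limma adjusted p = 0.01).

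Where a member split into clusters, the relation was taken within the larger cluster. Nfkbiz correlated there with Traf1 (r = 0.875, rho = 0.694), Tnfaip3 (r = 0.855, rho = 0.696), Ltb (r = 0.818, rho = 0.714) and Relb (r = 0.768, rho = 0.654) over 34 tumours, with a permutation p of 7e-05 or less in each. Without tumours 2 and 1 these r values were 0.809, 0.748, 0.701 and 0.612. In tumours outside the high Nfkbiz cluster, Nfkbiz thus correlated with Traf1 and Relb, pairs that were not called over all 39, and with Tnfaip3 and Ltb, which were (limma adjusted p = 0.00097 and 3.3e-06). Bcl3 with Traf1 gave r = 0.772 and rho = 0.695 (permutation p = 2e-05 and 7e-05, n = 30). Nfkbie with Traf1 gave r = 0.728 and rho = 0.503 (permutation p = 1e-05 and 0.0019, n = 36) and r = 0.569 without tumours 12 and 27. Nfkb2 with Cd83 gave r = -0.221 within 30 tumours (permutation p = 0.24, rho = -0.084, permutation p = 0.66), after the 9 tumours of the high Cd83 cluster were set aside. The same pair was called positive over all 39 (slope 0.81 ± 0.19, limma adjusted p over all genes = 0.0028), and r was 0.549 without the 7 tumours. Other pairs called over all 39 also had weak r within the larger cluster. For Nfkb2, r was 0.209 with Nfkbie and 0.257 with Bcl3 (permutation p = 0.22 and 0.17). Relb with Cd83 gave 0.251 (permutation p = 0.18). For Nfkbia, r was 0.306 with Nfkbie, 0.311 with Bcl3 and 0.290 with Cd83 (permutation p = 0.069, 0.095 and 0.12). Setting aside the tumours where a gene was highest narrowed its range, so a weak r there cannot show that a relation is absent. Without the 7 tumours, r of these other pairs ran from 0.635 (Nfkbia with Bcl3) to 0.828 (Nfkbia with Nfkbie). The smallest p that these permutations can give is 1e-05.

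The members were then read from fits of every gene along markers of B cell maturity and of other cells. A slope is the change in log2 level per SD of the axis, and axes other than Myc and Nfkbia are mean centred scores of marker genes. Along the mature B cell score (9 genes, from -2.50 in tumour 23 to 3.16 in tumour 2), Relb, Nfkbie, Traf1, Tnfaip3 and Nfkb2 rose, 5 of 10 members, and none fell, against 11.5% of all genes called (4.73% higher, 6.78% lower). Nfkbie rose by 0.84 ± 0.11 (SE, limma adjusted p = 4.8e-06), Traf1 by 0.80 ± 0.14 (adjusted p = 0.00026) and Relb by 0.64 ± 0.09 (adjusted p = 7.5e-06). The slopes were 0.51 ± 0.17 for Tnfaip3 and 0.16 ± 0.05 for Nfkb2 (limma adjusted p = 0.038 and 0.034). Nfkbiz had a slope of -0.50 ± 0.29 (adjusted p = 0.27) and Bcl3 of 0.01 ± 0.22 (adjusted p = 0.99).

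Without the 7 tumours all 10 members rose along the mature B cell score, against 11.4% of all genes called (5.69% higher, 5.74% lower). The slope of Nfkbiz was then 0.51 ± 0.10 (limma adjusted p = 0.00077, n = 32), opposite in sign to that over all tumours, and that of Bcl3 0.62 ± 0.09 (adjusted p = 6.2e-05). Ltb had 1.28 ± 0.21 and Cd83 0.90 ± 0.13 there. The calls of Tnfaip3 and Nfkb2 over all tumours were lost without tumour 1, 2, 12 or 27 (Tnfaip3 slopes 0.42, 0.30, 0.45 and 0.46), and that of Tnfaip3 also without tumour 18 (0.43). With the T cell, macrophage, dendritic cell and fibroblast scores in the fit, Relb (0.78 ± 0.12), Nfkbie (0.72 ± 0.15) and Traf1 (0.50 ± 0.09) were still called and Tnfaip3 (adjusted p = 0.13) and Nfkb2 (adjusted p = 0.11) were not. In that fit 412 of 18184 genes were called, 204 higher and 208 lower.

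**Figure D3:**
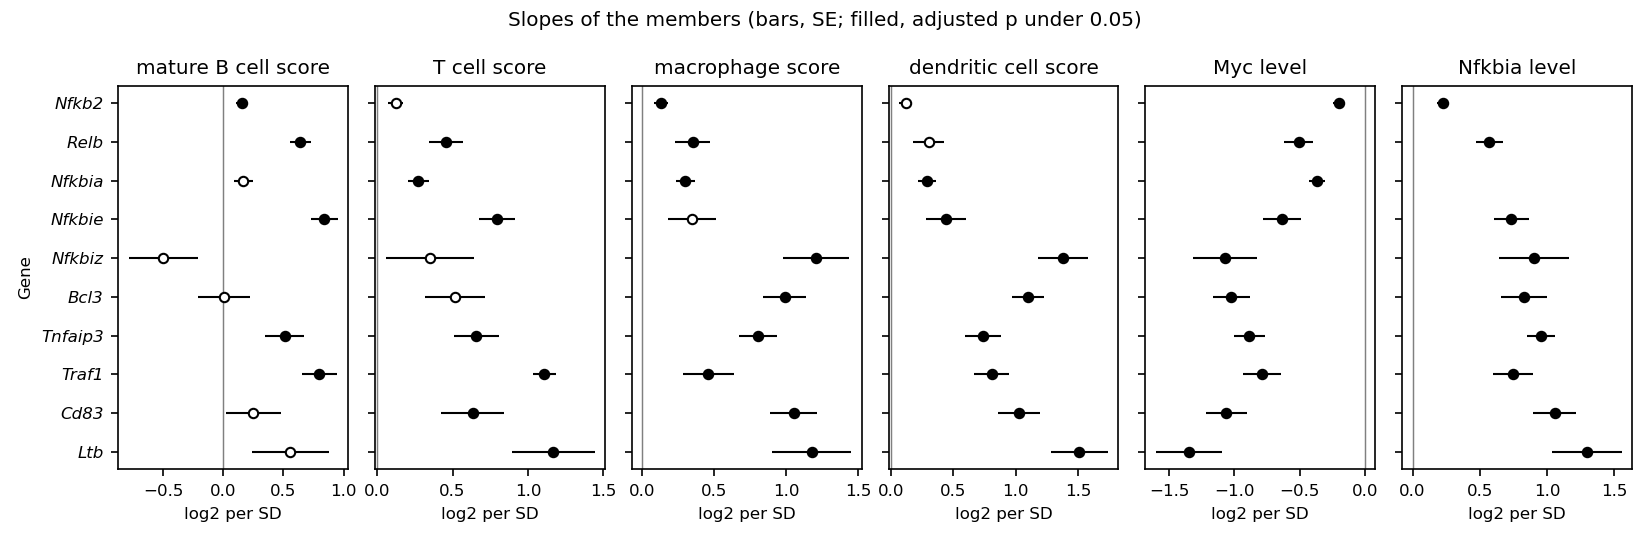
Slopes of the 10 genes (rows) along 6 axes (panels) in log2 per SD of the axis, with bars of 1 SE, from limma fits over 39 tumours. Filled points have an adjusted p under 0.05, Nfkbia has no slope on itself, and along Myc all 10 slopes are negative.

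T cell genes moved most closely with Traf1. The T cell score (14 genes) ran from -1.18 in tumour 10 to 2.72 in tumour 2, with tumour 27 at 1.99. Traf1 rose by 1.11 ± 0.08 per SD of it (limma adjusted p = 1.1e-13), and by 0.91 ± 0.08 without the 7 tumours (adjusted p = 7.3e-09). In all, 7 of 10 members rose and none fell, against 16.5% of all genes called (7.65% higher, 8.85% lower). Ltb rose by 1.17 ± 0.28 (adjusted p = 0.0029) and Nfkbie by 0.80 ± 0.12 (adjusted p = 9.5e-06), while Nfkb2, Nfkbiz and Bcl3 did not pass. Bcl3 passed without tumour 6, 8, 13 or 23, and Cd83 did not pass without tumour 1 or 27. Without the 7 tumours 8 members passed, against 14.6% of all genes called (7.97% higher, 6.64% lower). Nfkbiz (0.47 ± 0.10, limma adjusted p = 0.0019) and Bcl3 (0.53 ± 0.11, adjusted p = 0.0011) were then among them, and Relb was not (0.27 ± 0.12, adjusted p = 0.12). Tumour 2 carried much of this: without it 3 members and 814 genes were called, against 7 and 2999, and the adjusted p was 0.26 for Relb, 0.19 for Nfkbia, 0.11 for Tnfaip3 and 0.27 for Cd83. The part of T cells in these levels was not tested.

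Along the macrophage score (19 genes, from -0.99 in tumour 3 to 1.58 in tumour 2) 9 of 10 members rose and none fell, against 32.8% of all genes called (15.4% higher, 17.5% lower). Nfkbiz rose by 1.21 ± 0.23 (limma adjusted p = 9.4e-05), Cd83 by 1.05 ± 0.16 (7.2e-06) and Bcl3 by 0.99 ± 0.15 (5.7e-06), and Nfkbie did not pass (0.34 ± 0.17, adjusted p = 0.11). Without the 7 tumours 3 members passed, against 3.31% of all genes called (2.00% higher). They were Cd83 (0.69 ± 0.17), Tnfaip3 (0.56 ± 0.15) and Nfkbiz (0.41 ± 0.11). The call of Nfkb2 (limma adjusted p = 0.044) was lost on leaving out any 1 of 13 tumours (1, 2, 5, 8, 12, 13, 16, 21, 23, 28, 29, 34 or 36) and that of Traf1 (0.042) any 1 of 10 (1, 2, 11, 12, 16, 17, 21, 28, 35 or 36). The call of Relb was lost without tumour 1 or 2, and Nfkbie passed without tumour 6 or 23.

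The dendritic cell score (9 genes, from -0.88 in tumour 14 to 1.77 in tumour 2) called 8 of 10 members higher and none lower, against 39.6% of all genes called (19.0% higher, 20.6% lower). Ltb (1.51 ± 0.23), Nfkbiz (1.38 ± 0.20), Bcl3 (1.10 ± 0.13) and Cd83 (1.03 ± 0.17) had the largest slopes (limma adjusted p of 3.9e-06 or less). Nfkb2 and Relb did not pass (adjusted p = 0.067 and 0.054), but Nfkb2 passed without tumour 5, 9, 19, 22 or 26, and Relb without any 1 of 11 tumours (5, 8, 10, 12, 15, 17, 19, 23, 24, 26 or 31). Nfkbie passed with 0.44 ± 0.16 (adjusted p = 0.025), but not without tumour 2 (0.36) or tumour 1 (0.056). Without the 7 tumours 7 members passed, against 19.4% of all genes called (10.2% higher), and Nfkbia did not (0.15 ± 0.08, limma adjusted p = 0.16). Of this marker list, Batf3 was at 11.94, 11.74 and 10.88 in tumours 6, 8 and 23, and Siglech, a plasmacytoid dendritic cell gene, at 10.96 and 9.52 in tumours 19 and 26. These are the tumours with the highest Nfkbiz. Siglech was higher still in tumour 32 (12.54), where Nfkbiz was at 8.87. In tumours 6, 8 and 23 the list was mixed. Ccl17 and Xcr1 were above their means there, like Batf3, while Itgax (5.74, 5.59 and 5.68, mean 6.15) and Siglech were under theirs. Zbtb46, Cd209a, Fscn1 and Clec10a lay on both sides of their means. The part of dendritic cells in the Nfkbiz level was not tested.

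**Figure D4:**
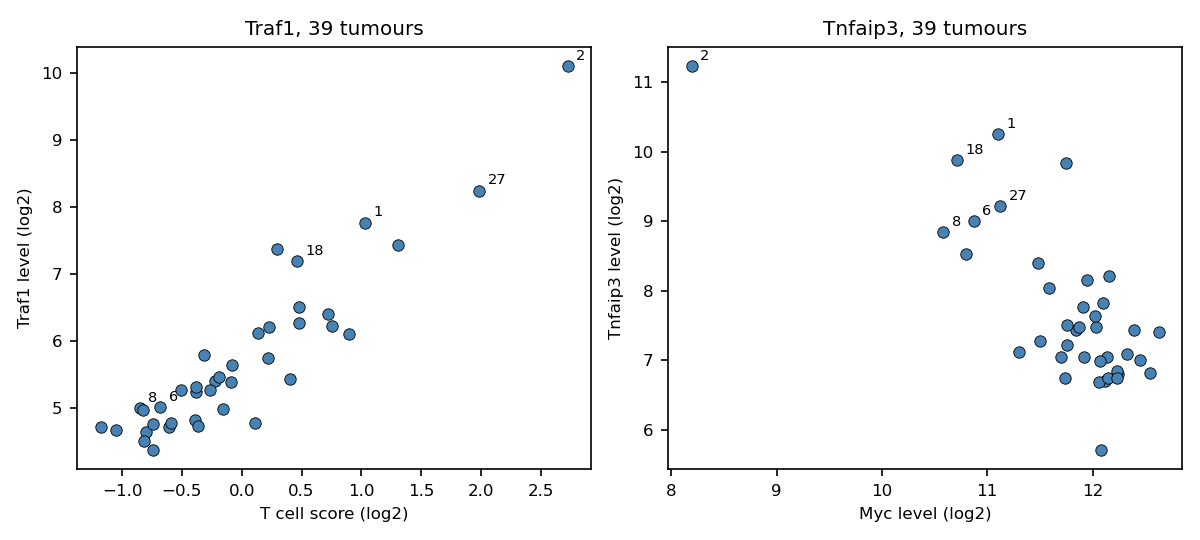
Traf1 against the T cell score (left) and Tnfaip3 against the Myc level (right), all in log2, in 39 tumours. Tumour 2 lies at the end of both, with Traf1 at 10.10 and a T cell score of 2.72, and with Tnfaip3 at 11.23 and Myc at 8.19.

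All 10 members fell along the Myc level, against 36.0% of all genes called (18.8% higher, 17.2% lower). Ltb fell by 1.35 ± 0.25 per SD of Myc (limma adjusted p = 4.1e-05), Nfkbiz by 1.07 ± 0.24 (0.00052), Cd83 by 1.06 ± 0.16 (1.2e-06), Bcl3 by 1.02 ± 0.14 (3e-07) and Tnfaip3 by 0.88 ± 0.12 (1.3e-07). Nfkb2 had the smallest slope, -0.20 ± 0.05 (adjusted p = 0.00045). Without the 7 tumours all 10 still fell, against 12.1% of all genes called (6.65% lower), with adjusted p from 0.00013 for Nfkbie to 0.032 for Nfkb2. Without tumour 2 alone, Relb (-0.20, adjusted p = 0.17) and Nfkbie (-0.32, adjusted p = 0.091) did not pass. With the T cell, macrophage, dendritic cell and fibroblast scores in the fit, 4 members fell: Tnfaip3 (-0.53 ± 0.16), Relb (-0.49 ± 0.16), Nfkbia (-0.29 ± 0.09) and Nfkb2 (-0.23 ± 0.07). In that fit 2138 of 18192 genes were called, 1299 higher and 839 lower.

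Other genes of the pathway were read along the Nfkbia level, where all 9 other members rose, against 28.3% of all genes called (12.2% higher, 16.0% lower). Their median slope was 0.83 and that of all genes -0.007. Cd83 (1.06 ± 0.16, limma adjusted p = 7.7e-06), Ltb (1.30 ± 0.26) and Tnfaip3 (0.96 ± 0.10) had the largest slopes. With the T cell, macrophage, dendritic cell and fibroblast scores in the fit, 3 passed, Tnfaip3 (0.64 ± 0.13, adjusted p = 0.0084), Nfkbie (0.54 ± 0.15, adjusted p = 0.034) and Nfkb2 (0.23 ± 0.06, adjusted p = 0.039). In that fit 638 of 18192 genes were called, 236 higher and 402 lower.

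Of the 5 other subunit and IkB genes measured, 4 rose. These were Nfkbid (0.32 ± 0.08), a nuclear IkB protein, Rel (0.30 ± 0.07), the c-Rel subunit, Nfkbil1 (0.17 ± 0.05) and Rela (0.13 ± 0.04), the p65 subunit. Nfkbib, which encodes IkB beta, had a slope of 0.01 ± 0.04 (limma adjusted p = 0.86). Of 21 receptors 12 rose and none fell, with a median slope of 0.30. Tnfrsf1b, the second TNF receptor, rose by 0.58 ± 0.15, the costimulatory receptor Cd27 by 0.55 ± 0.16, Cd40 by 0.54 ± 0.11 and Tlr2, a receptor for bacterial lipoproteins, by 0.50 ± 0.18. Of 11 ligands 8 rose and none fell. The BAFF gene Tnfsf13b rose by 0.59 ± 0.21, Lta, the partner of Ltb, by 0.58 ± 0.16, Tnfsf9 by 0.54 ± 0.18 and Il1b by 0.30 ± 0.10.

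Of 24 adaptors and kinases 7 rose and 2 fell, with a median slope of 0.05. These 9 of 24 stand beside 28.3% of all genes called, so the count is no result about the list. The kinase gene Ikbke (0.68 ± 0.13), the ubiquitin ligase genes Birc3 (0.53 ± 0.06, limma adjusted p = 4.5e-07) and Birc2 (0.31 ± 0.06) rose. Btrc, whose product marks phosphorylated IkB for breakdown, fell by 0.48 ± 0.14 (limma adjusted p = 0.01). Among 13 genes that restrain the pathway, 6 rose and none fell. These included Tnip1 (0.46 ± 0.12), a partner of A20, Pdlim2 (0.33 ± 0.09), Rnf11 (0.27 ± 0.07), another A20 partner, and Zc3h12a (0.27 ± 0.06), an RNase. Of 35 other targets 22 rose and none fell, with a median slope of 0.40. Plek (0.98 ± 0.17), the cytokine subunit gene Ebi3 (0.94 ± 0.29), Rgs1 (0.88 ± 0.11), a regulator of G protein signalling, and the chemokine gene Ccl5 (0.85 ± 0.25) had the largest slopes among those called. These lists were made with earlier results of these data known.

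**Figure D5:**
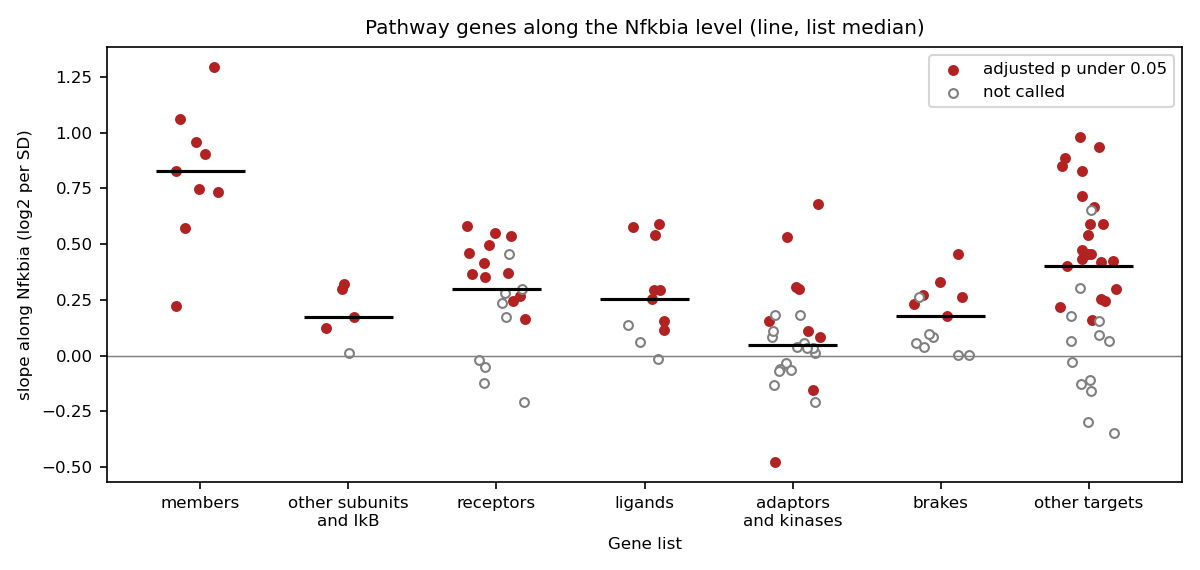
Slopes along the Nfkbia level (log2 per SD) of the 9 other members and of 6 lists of pathway genes, 1 point per gene, filled where the adjusted p is under 0.05, with a line at each list's median. The members' median is 0.83, that of the other targets 0.40 and that of adaptors and kinases 0.05.

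The same lists were read along other axes. Of 11 ligands 9 were called higher along the T cell score, against 7.65% of all genes, among them Lta (0.80 ± 0.14) and Tnfsf8 (0.59 ± 0.06). Along the macrophage score 5 of 11 were, against 15.4% of all genes, and the difference between these counts was not tested. Along Myc, where 17.2% of all genes were called lower and 18.8% higher, 27 of 35 other targets, 16 of 21 receptors, 9 of 11 ligands and 3 of 5 other subunit and IkB genes fell and none rose. Of 13 restraining genes 9 fell and 1 rose, and of 24 adaptors and kinases 9 fell and 3 rose.

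The genes most like the mean of the 10 centred members were listed as a description over the 39 tumours. Cd274, which encodes the checkpoint ligand PD-L1, had the highest correlation (0.932, and 0.908 without the 7 tumours), with levels from 6.07 in tumour 16 through a median of 6.93 to 11.14 in tumour 2. Ctso (0.925), a cathepsin gene, Dennd1c (0.911), Map3k8 (0.902), a kinase gene whose product is bound by the NF-kB precursor p105, Ms4a6b (0.901), Tapbp (0.901), the peptide loading factor of MHC class I, and Tank (0.888), an adaptor of TRAF proteins, followed. Itm2c (0.886), the interferon-inducible GTPase gene Gbp2 (0.882), Osbpl3 (0.877), Cd300lf (0.875) and Bmt2 (0.874) completed the 12. Among the lowest were the lamin gene Lmnb2 (-0.895), Abhd17c (-0.894), the repressor gene Hes6 (-0.886) and Ecsit (-0.885). All 12 with a high correlation kept 0.833 or more without the 7 tumours.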

How the data were processed

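RNA of 39 lymphomas was measured on short-oligonucleotide arrays, 1 per tumour. The authors deposited log2 values, which the submitters' processing notes credit to RMA and affy without a version. RMA corrects background and quantile normalizes, so dim genes are compressed and a change in total RNA cannot be seen. Of 45101 probe sets, 34945 named 1 gene in the platform annotation (932 several, 9211 not listed), and gene symbols came through Entrez IDs from GRCm38.p6, giving 18193 genes. No column of the table was left unused.

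Every gene was fitted on each axis with limma 3.58.1 (lmFit, eBayes with trend, 2-sided, Benjamini-Hochberg over all genes, threshold 0.05) in R 4.3.3, with genes of an axis left out of its fit. Clusters came from mclust 6.1.1 (an equal-variance mixture, BIC gain over 10, at least 3 tumours). Relations of members used 100000 permutations. The fit was tested on simulated data. The members and gene lists were chosen with earlier results of these data known. Of the pathway lists, genes without a named probe set were not analysed here. Genes named are the members, the called genes of each pathway list with the largest slopes along Nfkbia (4 each, and every other subunit or IkB gene), and the 12 highest and 4 lowest in likeness, passing over unnamed transcripts. Others were chosen after their values were seen. Precision is limited by the 39 arrays. The alternatives tried were the mean of all probe sets, a filter on dim genes, tumours left out, covariates for array controls and tissue scores, eBayes without trend, and arrays centred on their medians.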

Additional observations from a re-analysis of the deposited data

How the results depend on the processing

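No paired analysis was possible because all tumours form 1 group. Under every alternative run, 1 slope changed sign with a call: that of Nfkbiz along the mature B cell score, 0.511 without the 7 tumours with a low pan B cell score or low Myc. Leaving out the 3 arrays with the lowest mean correlation (tumours 6, 8 and 2) gave 2609 genes called along Nfkbia, 3445 along Myc, 728 along the mature B cell score, 1763 along the T cell score and 2069 along the macrophage score, where 5 members were called. Leaving out the 7 tumours gave 2444 along Nfkbia, 2195 along Myc, 601 along the macrophage score (3 members) and 3525 along the dendritic cell score, and 10 members along the mature B cell score. Genes above the median level gave 1357 along the mature B cell score, where 9090 of 18184 genes were tested. With the T cell, macrophage, dendritic cell and fibroblast scores as covariates 638 genes and 3 members were called along Nfkbia and 17 pairs of members. The same covariates, added after seeing the data, gave 2138 genes and 4 members along Myc and 412 genes and 3 members along the mature B cell score. The main values were 5141, 6549, 2094, 2999, 5968 and 7201 genes along Nfkbia, Myc and the mature B cell, T cell, macrophage and dendritic cell scores, and 39 pairs. The cause of these changes was not tested beyond the tumours and scores named.

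Leaving out each tumour in turn gave 3049 to 5397 genes along Nfkbia (9 members throughout), 5936 to 6616 along Myc (8 to 10), 1508 to 2483 along the mature B cell score (3 to 5), 814 to 3864 along the T cell score (3 to 8), 4578 to 6171 along the macrophage score (6 to 10) and 6305 to 7298 along the dendritic cell score (7 to 10). The lowest count along Nfkbia (3049) and along the T cell score (814) came without tumour 2. Centring arrays on their medians moved the split of calls to 766 higher and 2339 lower from 861 and 1233 along the mature B cell score, and to 1315 and 2999 from 1391 and 1608 along the T cell score. The mean of all probe sets, the control component and eBayes without trend left every count of genes within 1.5 times.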

Other observations

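Levels of 4 receptor and ligand genes are given for the tumours with the highest Nfkbiz. They were chosen after their values were seen, carry no test, and stand apart mainly in tumours 6, 8 and 23. Tnfrsf13c, which encodes the BAFF receptor, had levels of 3.56, 4.40 and 4.55 in tumours 8, 23 and 6, its 3 lowest, against a median of 10.07. It was at 8.29 and 8.25 in tumours 19 and 26. Tnfsf13b, which encodes its ligand BAFF, was highest in the same tumours 8 (10.39), 23 (10.12) and 6 (9.86), with 9.01 in tumour 2, 7.54 in tumour 26 and 6.90 in tumour 19, against a median of 6.07. The TNF receptor gene Tnfrsf1a was at 10.75, 10.54 and 10.64 in tumours 8, 23 and 6, against a median of 8.19, at 9.08 and 8.99 in tumours 19 and 26, and at 10.31 in tumour 2. The Tnfrsf1b level was highest in tumours 8 (11.49) and 6 (11.35), followed by tumours 2 (10.20) and 23 (9.47), and was 8.00 and 8.32 in tumours 19 and 26, against a median of 7.48.

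The 5 highest Lta levels were 10.16, 8.14, 7.92, 7.32 and 6.23, in tumours 27, 18, 2, 1 and 12, and it was at 4.91 or less in tumours 6, 8, 19, 23 and 26, against a median of 4.95. Tumour 24, with Relb at 7.88, had Lta at 4.79, and tumour 32, with Traf1 at 7.44 and Nfkbie at 9.55, had it at 5.46. Ltb, its partner in the lymphotoxin trimer, was at 9.20 or more in both sets of tumours.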
